A study of Mus musculus with 20 samples.

Results

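The nuclear genes of the oxidative phosphorylation system were followed in keratinocytes, the epithelial cells of the epidermis, isolated from the back and ear skin of 20 mice and enriched by flow cytometry. The gene set held 92 of the 25719 genes of the count table, chosen by name: symbols that start with Ndufa, Ndufb, Ndufc, Ndufs, Ndufv, Sdha to Sdhd, Uqcr, Cox4 to Cox8 or Atp5, without pseudogenes (names with -ps) and without the Ndufaf assembly factors. Of these, 38 belong to complex I, 4 to complex II, 8 to complex III, 20 to complex IV and 18 to complex V. The other 4, Sdhaf1 to Sdhaf4, fit the name rule but help to assemble complex II and are kept as a class of their own. Ndufa4, its isoform Ndufa4l2 and the supercomplex factor Cox7a2l were counted with complex IV.

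The 4 groups had 5 mice each. All mice carried floxed Cyp11b1 alleles (L2/L2), and all received tamoxifen for 5 days before cells were taken on day 6. The cKO mice also carried K14-CreERTam, a tamoxifen-activated Cre recombinase driven by the keratin 14 promoter, and the controls were littermates without Cre, so tamoxifen alone does not separate the genotypes. In the topical groups tamoxifen in ethanol was put on shaved back skin (100 µl) and ear skin (20 µl), and in the systemic groups 100 µl of a 10 mg/ml solution in oil and ethanol was injected into the peritoneum. Route therefore differs in site, vehicle and shaving at once. Cyp11b1 is the enzyme of the last step to corticosterone, and the study asks how loss of glucocorticoid synthesis in skin affects keratinocytes after each route. Libraries are named by group and the mouse number in the labels: topical controls 1, 3, 5, 6 and 7, topical cKO 2, 3, 4, 5 and 7, systemic controls 1, 3, 4, 5 and 6 and systemic cKO 2, 4, 5, 6 and 7.

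Oxidative phosphorylation takes place in the inner mitochondrial membrane. Complexes I and II pass electrons from NADH and succinate to ubiquinone, complex III passes them on to cytochrome c, complex IV hands them to oxygen, and complex V uses the resulting proton gradient to make ATP. A few core subunits of complexes I, III, IV and V are encoded in mitochondrial DNA, and the remaining subunits, with all of complex II, are made from nuclear genes and imported. The nuclear genes are known to share promoter elements for the factors NRF1, GABPA and YY1. In epidermis, keratinocytes draw ATP from both glycolysis and respiration.

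Libraries held 11.6 to 50.1 M counts, and a gene with 0 counts could have stood at up to 0.0599 CPM, the read count scaled by library size, in the largest and 0.259 CPM in the smallest, taking 3 counts as the limit. These limits cover counting error only. Cyp11b1 itself had 9 reads in topical controls, 7 in topical cKO, 2 in systemic controls and 4 in systemic cKO libraries, so its deletion cannot be read from these data. The 10 keratinocyte markers summed to 74880.5 to 166122 CPM per library, against 21.9 to 83.6 CPM for 8 fibroblast genes, 5.74 to 30.5 CPM for 8 epidermal immune cell genes (mostly Cd74, at 4.16 to 27.5 CPM, with Ptprc at most 0.108 CPM), 4.73 to 23.1 CPM for 5 melanocyte genes and 0.957 to 7.22 CPM for 5 endothelial genes. In 6 libraries, all 5 systemic controls and systemic cKO 2, the summed level of 12 predicted genes that resemble satellite repeats was 79.4 to 37287 CPM, against 0.839 to 42.5 CPM in the other 14. Mitochondrially encoded genes took 1.87% to 3.68% of the counts in 10 libraries and 5.24% to 7.49% in the other 10, which were topical controls 5 and 6, topical cKO 3 and 5, systemic controls 3 and 6 and systemic cKO 2, 5, 6 and 7.

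Genes of all 5 complexes were expressed, with complex V taking the most reads. Of the 92 genes, 84 passed the filter on low counts (edgeR's filterByExpr). Summed as CPM of the library total, the set took 11927 CPM on average over 20 libraries, of which complex V made up 47.7%, complex IV 20.6%, complex I 17.5%, complex III 11.8%, complex II 2.23% and the Sdhaf genes 0.259%. Per kb of transcript, which allows genes to be compared, the median gene reached 183 CPM per kb in complex III, 178 in complex IV, 148 in complex V, 47.1 in complex I and 35.0 in complex II. The highest gene of each complex by mean level per kb was Ndufb9, an accessory subunit, at 301 CPM per kb in complex I and Sdhb, the iron-sulfur subunit, at 51.4 in complex II. In complex III it was Uqcrc1, a core protein, at 376 CPM per kb, in complex IV Cox4i1, a regulatory subunit, at 864, and in complex V Atp5b, the catalytic beta subunit, at 1357. Atp5b therefore stood highest of all 84 per kb, and Sdhaf3 lowest at 0.514 CPM per kb.

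The 8 genes under the filter were nearly silent and were mostly the muscle, testis or lung isoforms of complex IV subunits. Cox7b2, Cox8b and Cox8c had 0 counts in all 20 libraries, Ndufb11b and Cox6a2 had 1 count each in all libraries together, Cox4i2 had 5, Cox7a1 had 20 and Cox6b2 had 96. Their widely expressed partners carried the level: Cox4i1 averaged 864 CPM per kb, Cox6a1 551, Cox6b1 499, Cox7a2 134, Cox7b 75.2 and Cox8a 476 CPM per kb. Of the markers of other tissues that use the silent isoforms, the 5 brown adipocyte genes summed to 1.59 to 37.9 CPM, nearly all from Cidea (1.06 to 36.4 CPM) and with Ucp1 at 0 counts in all libraries, and the 6 skeletal muscle markers summed to 2.11 to 10.1 CPM. The pair of Ndufa4 and Ndufa4l2 was the exception, since both were expressed: Ndufa4 averaged 178 CPM per kb and Ndufa4l2 99.8 CPM per kb. Of the 3 genes that encode the same mature c subunit of the ATP synthase rotor, Atp5g3 led per kb at 148 CPM per kb, followed by Atp5g2 at 32.4 and Atp5g1 at 26.6. The transcript model of Atp5g1 is long, at 4715 bases against 731 for Atp5g2 and 723 for Atp5g3, so its level per kb depends on which model is right. Values of Atp5o are uncertain, because the table lists it under 2 overlapping gene models, and so are those of Ndufb1, whose row is annotated as a noncoding transcript beside the gene.

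The RefSeq promoters of Atp5g2, Sdhd and Atp5pb are shown because these are the 3 genes of the set called by edgeR over all 20 libraries in any comparison below. Atp5g2 encodes the rotor's c subunit, Sdhd a membrane anchor of complex II and Atp5pb the b subunit of the stator stalk of complex V. Each is 180 bases before and 30 bases after the start site on GRCm38.p6, minus strand, with matches in capitals: the NRF1 motif (10 letters), CCGGAAG for GABPA, AAGATGGC for YY1 and GGGCGG for Sp1, and TCAAGGTCA for ERRA was searched too, each on both strands.
Atp5g2, chr15:102671018-102671227: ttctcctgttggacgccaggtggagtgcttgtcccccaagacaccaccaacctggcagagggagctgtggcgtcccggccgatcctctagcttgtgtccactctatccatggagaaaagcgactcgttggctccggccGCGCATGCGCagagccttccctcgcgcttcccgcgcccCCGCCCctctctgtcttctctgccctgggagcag
Sdhd, chr9:50603820-50604029: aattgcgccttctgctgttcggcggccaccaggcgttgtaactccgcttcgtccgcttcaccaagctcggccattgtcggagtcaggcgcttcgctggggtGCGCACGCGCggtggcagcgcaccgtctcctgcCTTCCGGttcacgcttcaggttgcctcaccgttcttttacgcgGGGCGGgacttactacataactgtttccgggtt
Atp5pb, chr3:105959234-105959443: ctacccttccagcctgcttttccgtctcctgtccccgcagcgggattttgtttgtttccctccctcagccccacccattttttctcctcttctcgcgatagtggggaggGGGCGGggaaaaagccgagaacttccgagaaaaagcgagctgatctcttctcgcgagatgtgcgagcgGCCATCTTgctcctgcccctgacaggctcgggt
Counted from the start site, the Atp5g2 promoter held an NRF1 match at -42 to -33 and an Sp1 match that spans the start. The Sdhd promoter held an NRF1 match at -79 to -70, a GABPA match at -46 to -40 and an Sp1 match across the start. The Atp5pb promoter held a YY1 match from -3 to 5 and an Sp1 match at -71 to -66. In the GENCODE annotation of the same build, Atp5g2 spans 102662864 to 102672352 and Atp5pb 105942698 to 105960099, so that both starts lie inside the annotated gene, and Sdhd spans 50596357 to 50603812.
No printed matches overlap each other. A single ERRA match of Sdhd lies downstream of the printed stretch.

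Promoters of 74 of the 91 symbols were in the RefSeq table. Over the 300-base windows (250 before and 50 after the start), NRF1 matched 19 of 74 (25.7%), against 5.19% of 27025 genes in the table and 11.7% of those that were tested here. GABPA matched 27.0% of the set (9.93% of all, 20.6% of tested genes), YY1 13.5% (3.19% and 5.43%), Sp1 44.6% (38.2% and 69.6%) and ERRA 2.70% (0.466% and 0.327%). At least 1 of NRF1, GABPA and YY1 matched 42 of 74 (56.8%, against 16.4% and 33.1%). YY1 matches were in complex I (7 of 33) and complex V (3 of 15) and in none of the 14 promoters of complex IV. A match describes letters in this window and says nothing on binding.

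Within groups most genes of the set were high or low in the same libraries. Both the size of these differences and which libraries were high depended on how libraries were scaled. As CPM of the library total, the summed level was 14162, 13748, 13386, 13419 and 12849 CPM in the topical controls and 15151, 11339, 12845, 14223 and 13451 CPM in the topical cKO libraries. It was 11249.7, 7776, 8604, 11749 and 10381 CPM in the systemic controls and 8836, 14407, 12128, 10130.2 and 8714 CPM in the systemic cKO libraries. On this scale all 5 topical controls lay above all 5 systemic controls, while the cKO groups overlapped with each other and with the controls of their own route. The highest library of a group exceeded the lowest 1.10-fold in topical controls, 1.34-fold in topical cKO, 1.51-fold in systemic controls and 1.65-fold in systemic cKO. In bulk RNA, fewer cells of a type and less RNA per cell cannot be told apart.

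**Figure D1:**
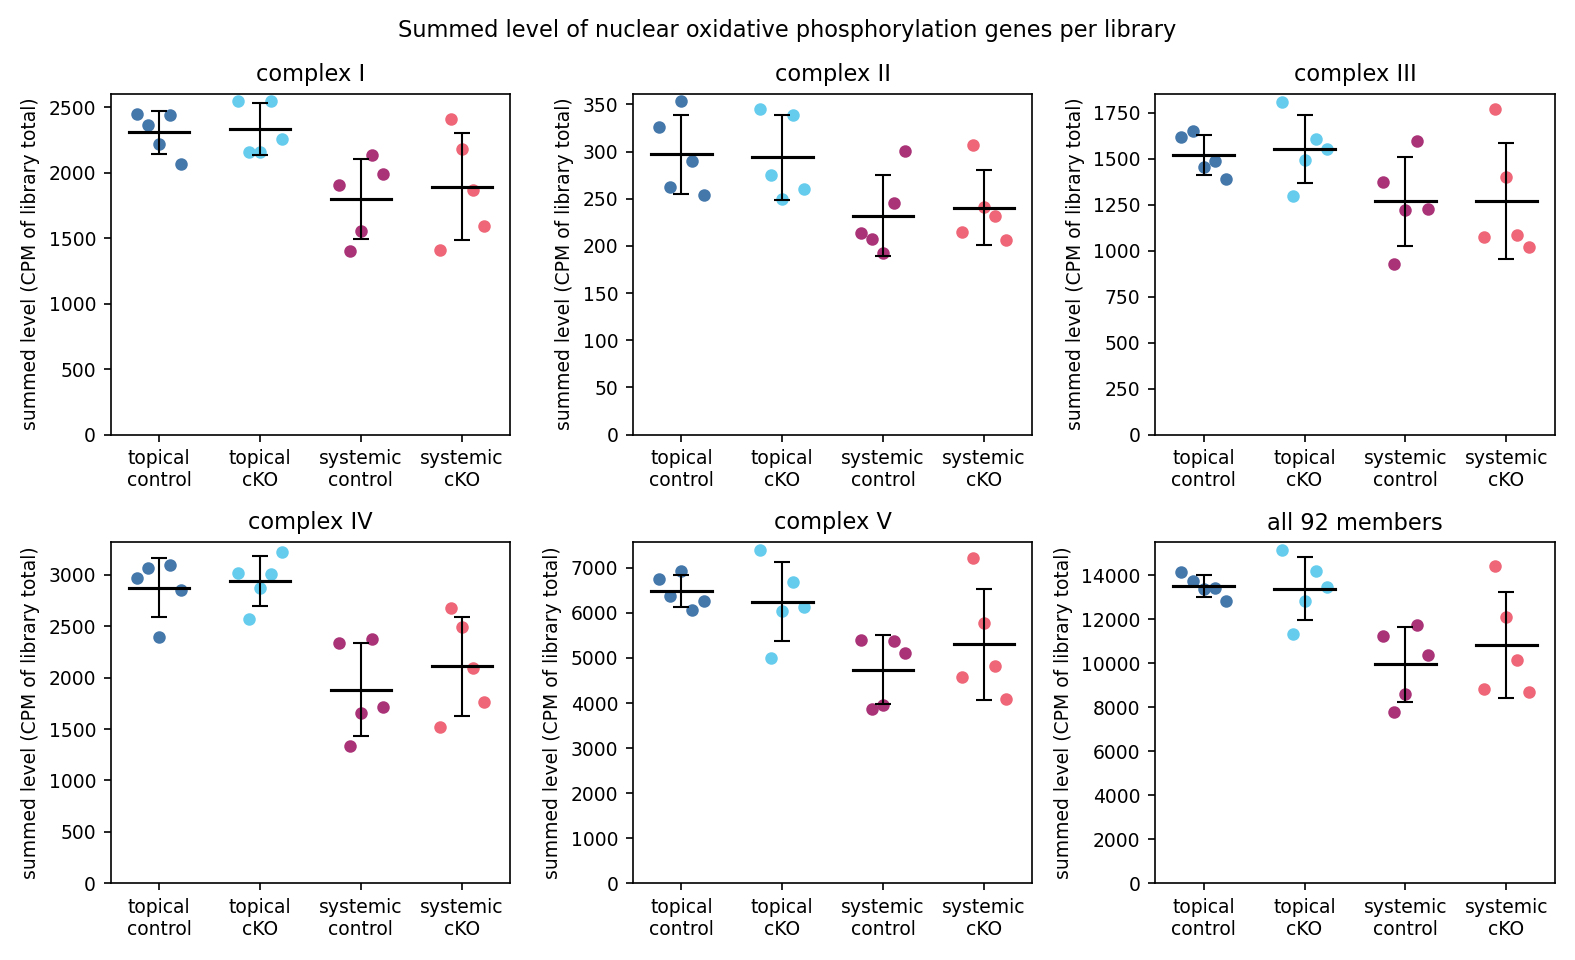
Summed level of the genes of each complex, and of all 92 genes, per library (points, CPM of the library total) in the 4 groups of 5 mice, with the group mean (wide line) and SD (error bar). In complexes IV and V the 5 systemic controls lie below the 5 topical controls, while control and cKO overlap within each route in all 6 panels.

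With TMM factors, which scale each library to the bulk of its genes and underlie all levels of single genes and fold changes below, the within-group spread was wider: 1.42-fold in topical controls, 1.85-fold in topical cKO, 2.08-fold in systemic controls and 2.25-fold in systemic cKO. The libraries with the highest and lowest summed level of a group on this scale were then compared. Higher were 74 of 84 genes in topical control 3 than in topical control 5, beside 50.2% of all genes. It was 82 of 84 in topical cKO 7 against topical cKO 3 (49.4%) and 83 of 84 in systemic control 5 against systemic control 3 (46.5%). In systemic cKO 4 against systemic cKO 7 it was 82 of 84 (49.6%). On library totals the topical control pair had 77 of 84, beside 79.1% of all genes. Pairs of the other groups had 75 to 80 of 84, beside 20.2% to 25.9%. These pairs were chosen by the sum of the same genes, which partly fixes the counts. With TMM factors the summed levels of the controls overlapped between routes, at 11278 to 15990 CPM in topical and 6529 to 13609 CPM in systemic controls. At the extremes of the TMM scale, 83 of the 84 genes lay above their own median over 20 libraries in topical cKO 7, against 1 of 84 in systemic controls 3 and 6. In topical cKO 5 it was 10 of 84 on the TMM scale and 79 of 84 on library totals. The median gene differed 3.03-fold between its highest and lowest library, and 80 of 84 differed by more than 2-fold. The least variable were Sdhaf2, which flavinates Sdha, at 1.48-fold and Ndufs1, the largest core subunit of complex I, at 1.64-fold. Ndufs1 kept to 37.0 to 60.7 CPM in all 20 libraries. The most variable was Ndufa4l2, from 14.8 to 349.5 CPM. These 3 genes were singled out after their values were seen.

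**Figure D2:**
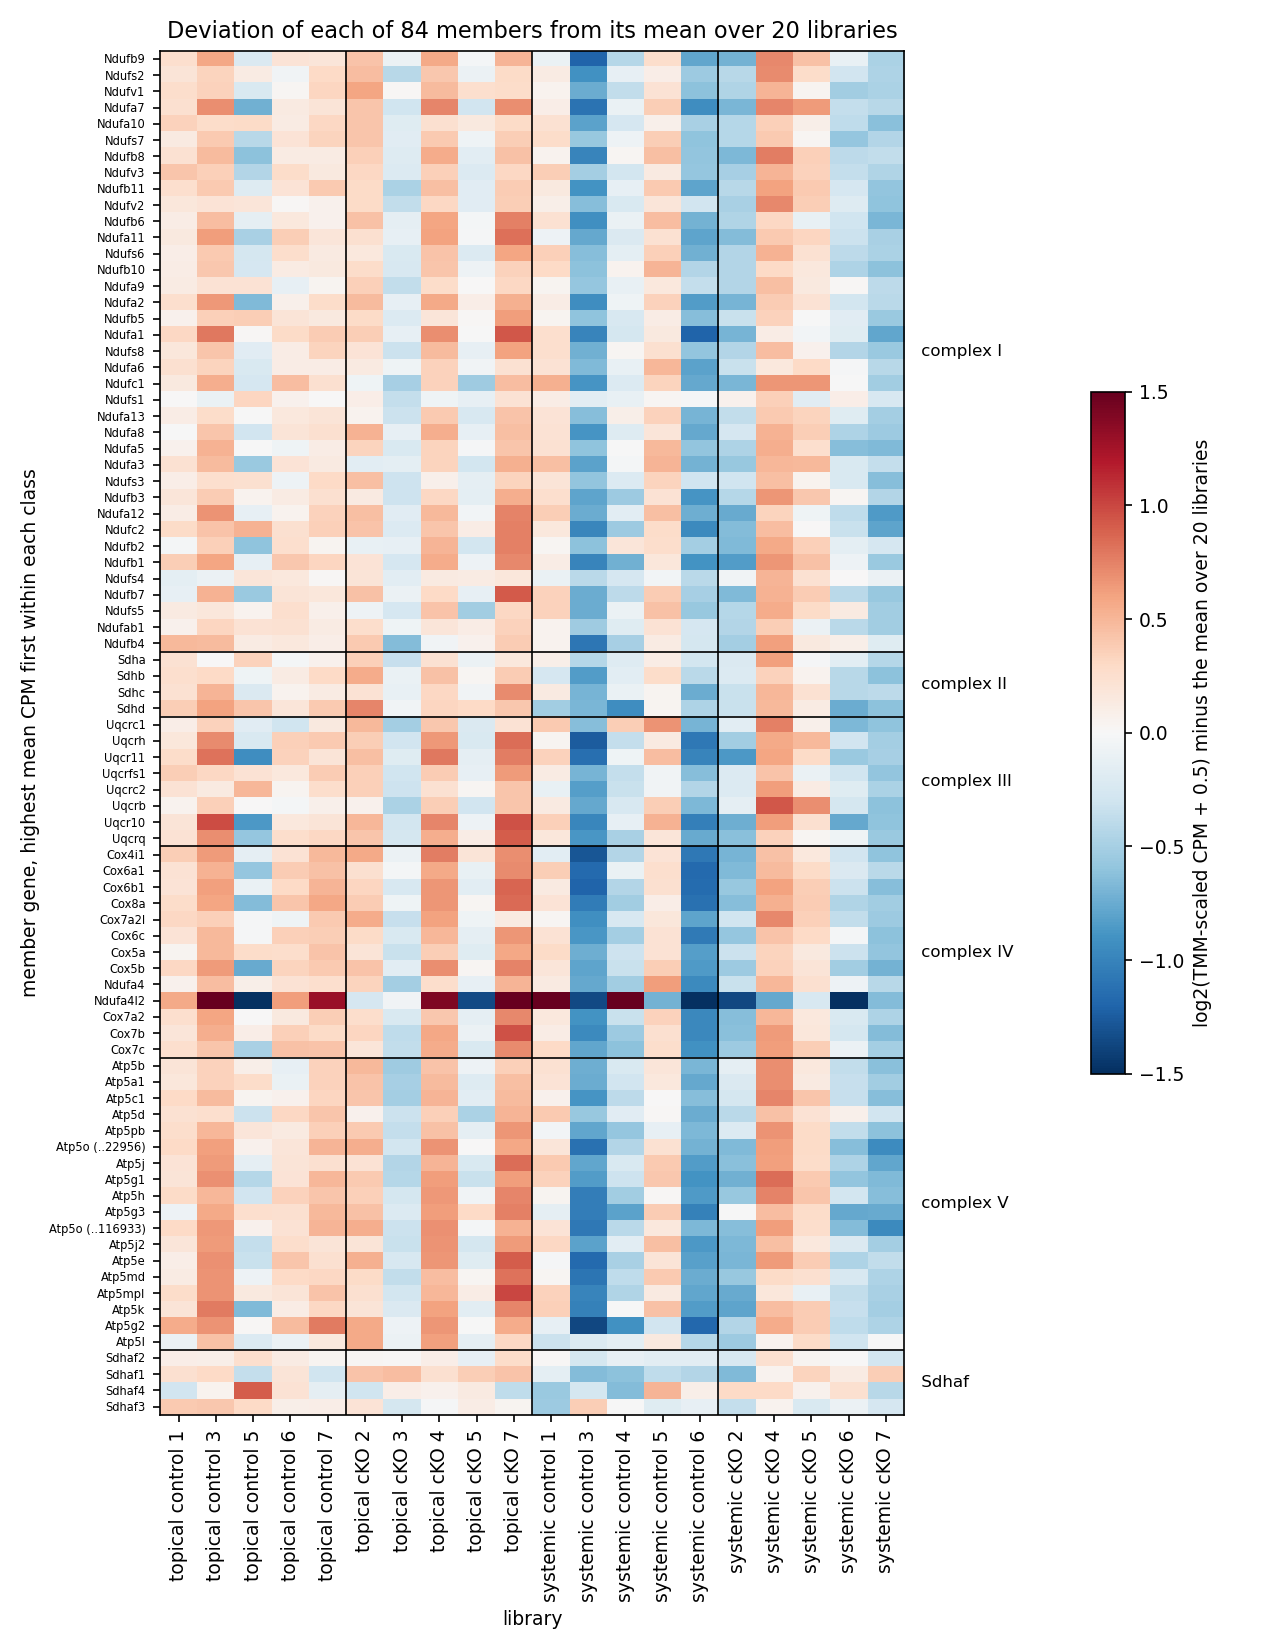
Deviation of each of the 84 genes past the filter (rows, by complex) from its mean over 20 libraries (columns, by group), as log2 of TMM-scaled CPM plus 0.5 (red above, blue below the mean, colours capped at 1.5). Whole columns share 1 colour: topical cKO 7 and systemic cKO 4 are red in nearly every row, systemic controls 3 and 6 blue, and Ndufa4l2 breaks the pattern.

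On the TMM scale, but not on library totals outside systemic cKO, the summed nuclear level was lower in libraries with a high mitochondrial share. In each of the 4 groups every library with over 5% mitochondrial counts had a lower summed nuclear level than every library under 5%: 11278 to 12415 against 13465 to 15990 CPM in topical controls and 9192 to 10836 against 15351 to 17018 CPM in topical cKO. In systemic controls the ranges were 6529 to 6847 against 9923 to 13609 CPM, and in systemic cKO 7855 to 13570 CPM against 17639 CPM in the single library under 5%. As CPM of the library total this separation held in systemic cKO and in no other group: the ranges overlapped in topical controls (13385.5 to 13419 against 12849 to 14162 CPM), in topical cKO (11339 to 14223 against 12845 to 15151 CPM) and in systemic controls (7776 to 10381 against 8604 to 11749 CPM). TMM factors ran from 0.7804 in topical cKO 4 to 1.5182 in systemic control 6. In each group every library over 5% also had a higher factor than every library under 5%. In topical cKO, for example, the factors were 1.2345 and 1.3137 against 0.7804 to 0.9874. Summed levels with TMM factors are divided by these values, and whether the separation goes beyond this scaling was not tested. Because the mitochondrial share fell into separate clusters, no correlation across libraries was computed. Of the 13 mitochondrially encoded subunits, 9 passed the filter. Those of complexes I, III and IV such as mt-Co1, mt-Nd1 and mt-Cytb led the share, whereas mt-Co2, mt-Co3, mt-Atp6 and mt-Atp8 are listed with 4, 66, 32 and 10 counts in all libraries together, so the share leaves out 4 genes that every cell with mitochondria uses.

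**Figure D3:**
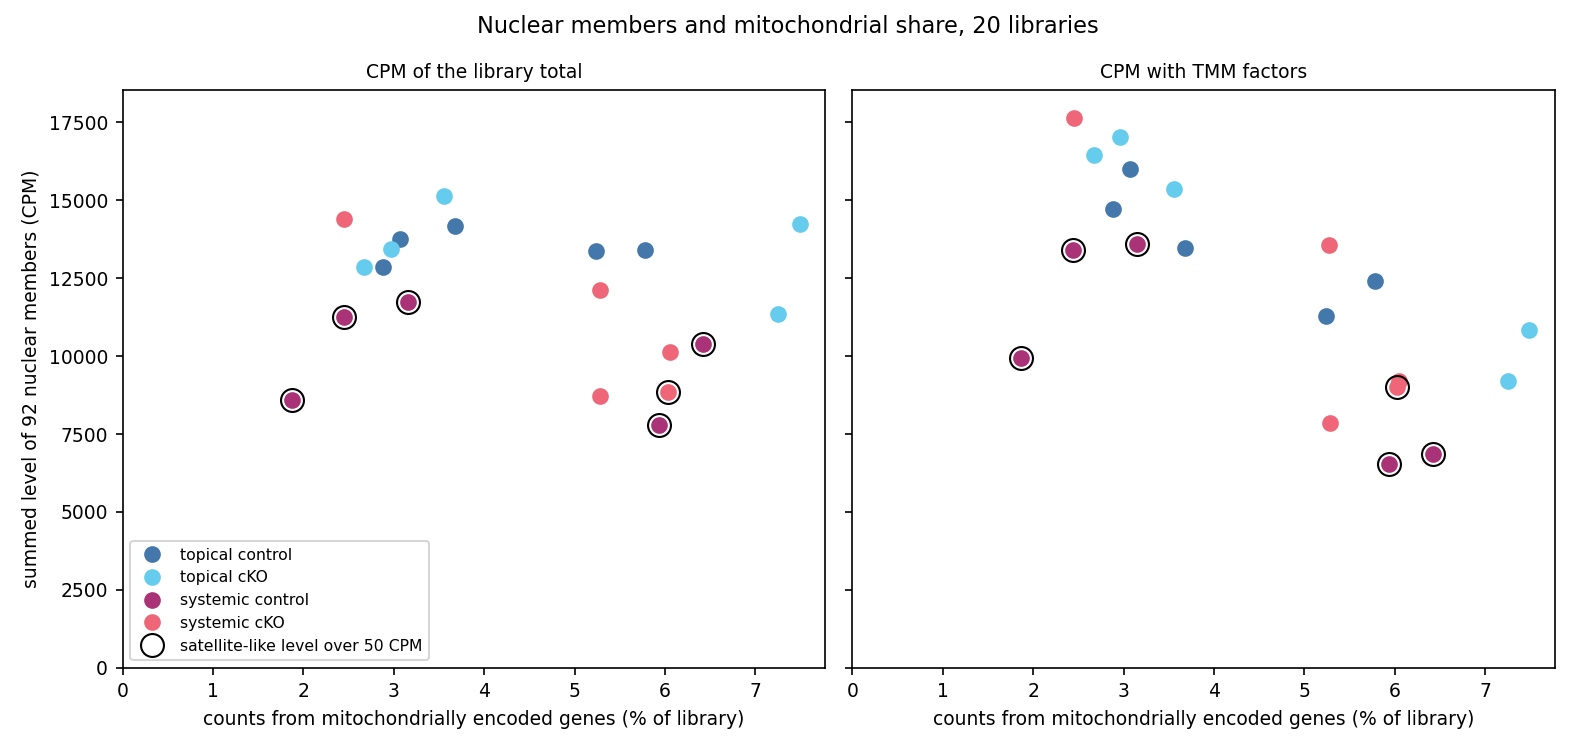
Summed level of the 92 nuclear genes (vertical axis, CPM) against the percent of counts from mitochondrially encoded genes (horizontal axis) in 20 libraries, as CPM of the library total (left) and with TMM factors (right), with rings around the 6 libraries whose satellite-like level is over 50 CPM. On the right the libraries over 5% lie below those under 5% within each group, on the left the ranges overlap in all groups but systemic cKO.

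Deletion induced on the skin was compared first, to ask whether respiratory genes differ when glucocorticoid synthesis is ablated locally. No gene of the set was called in topical cKO against topical controls by edgeR's quasi-likelihood test (Benjamini-Hochberg adjusted p under 0.05), where 0.129% of all genes tested were called, and none had an unadjusted p under 0.05, against 5.66% of all genes. DESeq2's Wald test and limma voom called 0 of the set either, where they called 0.338% and 0.105% of all genes. Log2 fold changes of the 84 genes ran from -0.30 to 0.37 with a median of 0.01 and a median SE of 0.26, against a median of 0.02 over all genes tested, and the median was -0.02 on library totals without TMM factors and between -0.09 and 0.13 without 1 library. By complex the median was 0.02 for complex I, 0.02 for complex II, 0.05 for complex III, 0.03 for complex IV and 0.00 for complex V. Sdhaf1, an assembly factor that brings iron-sulfur clusters to Sdhb, had the smallest p of the set, with a log2 fold change of 0.37 (adjusted p = 0.895, SE 0.18). Summed levels per complex were close too, at 2307 ± 164 CPM in controls and 2332 ± 199 CPM in cKO for complex I (SD, n = 5 each) and 6478 ± 356 against 6253 ± 885 CPM for complex V. 

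In the systemic comparison, systemic cKO against systemic controls, the median gene was slightly higher in cKO and no single gene passed the test. None of the 84 genes was called, where 1.89% of all genes tested were called, and 4 had an unadjusted p under 0.05 (4.76%, against 15.3% of all genes). The median log2 fold change was 0.16, against -0.0045 over all genes, with 71 of 84 above 0. The median of the set turned to -0.16 and -0.30 when the satellite-like level was a covariate on the log2 scale or as a split at 50 CPM. It turned to -0.01 without systemic cKO 4. By complex the median was 0.13 for complex I, 0.17 for complex II, 0.17 for complex III, 0.27 for complex IV and 0.18 for complex V, each with a median SE between 0.20 and 0.29. Summed levels overlapped between the groups in every complex, for example 1884 ± 456 CPM in controls and 2109 ± 484 CPM in cKO for complex IV (SD, n = 5 each). No marker gene of other cells was called in this comparison, and their summed levels overlapped. The 5 erythroid genes summed to 1.47 to 4.18 CPM in systemic controls and 3.52 to 7.63 CPM in systemic cKO. The 8 immune cell genes summed to 8.36 to 25.1 and 17.1 to 30.5 CPM. All 3 melanocyte genes tested had a log2 fold change below 0, with a median of -0.86. Their part in the result was not tested.

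The 2 genes with the smallest adjusted p in each complex show the overlap. In complex I these were Ndufs4, an accessory subunit of the NADH-oxidising arm that is required for its stability, and Ndufb4, a subunit of the membrane arm. Ndufs4 levels were 20.0, 20.9, 25.3, 24.7 and 22.5 CPM in the topical controls and 25.4, 19.7, 24.4, 24.1 and 24.9 CPM in the topical cKO libraries. With systemic tamoxifen, Ndufs4 stood at 20.6, 16.5, 18.6, 21.5 and 16.6 CPM in the controls and 21.4, 31.8, 25.9, 22.3 and 20.8 CPM in the cKO libraries. In the systemic cKO group libraries 4 and 5 lay above all controls of both routes and the other 3 overlapped with them, and the log2 fold change in the systemic comparison was 0.39 (adjusted p = 0.127, SE 0.13). Ndufb4 levels were 5.95, 5.89, 4.51, 4.64 and 4.44 CPM in the topical controls and 5.52, 2.42, 3.92, 4.31 and 5.49 CPM in the topical cKO libraries. With systemic tamoxifen, Ndufb4 stood at 4.28, 1.67, 2.77, 4.50 and 3.33 CPM in the controls and 2.73, 6.55, 4.60, 4.36 and 3.56 CPM in the cKO libraries. Ndufb4 was lowest in systemic control 3 and highest in systemic cKO 4, the groups overlapped, and the log2 fold change was 0.43 (adjusted p = 0.474, SE 0.26).

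In complex II the genes were Sdhd and Sdhc, the membrane anchors that hold the ubiquinone site. Sdhd levels were 33.5, 39.5, 34.5, 29.3 and 33.8 CPM in the topical controls and 42.9, 24.7, 32.2, 31.7 and 34.2 CPM in the topical cKO libraries. With systemic tamoxifen, Sdhd stood at 17.7, 15.8, 13.2, 26.4 and 18.5 CPM in the controls and 20.3, 36.1, 27.9, 15.1 and 16.6 CPM in the cKO libraries. Both systemic groups lay mostly below the topical ones, and 3 of the 5 systemic cKO libraries overlapped with the systemic controls, with a log2 fold change between genotypes of 0.35 (adjusted p = 0.471, SE 0.21). Sdhc levels were 48.5, 59.1, 35.6, 43.0 and 45.1 CPM in the topical controls and 48.3, 38.3, 51.3, 39.9 and 67.8 CPM in the topical cKO libraries. With systemic tamoxifen, Sdhc stood at 45.4, 25.3, 38.7, 42.7 and 24.6 CPM in the controls and 32.8, 58.8, 48.7, 30.9 and 31.5 CPM in the cKO libraries. Sdhc overlapped in all 4 groups and its systemic log2 fold change was 0.20 (adjusted p = 0.725, SE 0.22).

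In complex III the genes were Uqcrc2, a core protein, and Uqcrb, a small subunit near the ubiquinone site. Uqcrc2 levels were 129.8, 123, 158, 114 and 134 CPM in the topical controls and 143, 90.1, 130.4, 114 and 148 CPM in the topical cKO libraries. With systemic tamoxifen, Uqcrc2 stood at 103, 62.5, 88.2, 107 and 82.2 CPM in the controls and 96.9, 172, 121, 98.0 and 80.0 CPM in the cKO libraries. The 5 systemic controls were all lower than the 5 topical controls, and the systemic cKO libraries reached into both ranges, with a log2 fold change between systemic genotypes of 0.36 (adjusted p = 0.414, SE 0.20). Uqcrb levels were 87.2, 108, 84.8, 82.5 and 89.0 CPM in the topical controls and 88.1, 60.5, 109, 69.2 and 112 CPM in the topical cKO libraries. With systemic tamoxifen, Uqcrb stood at 92.7, 49.2, 71.4, 109 and 52.8 CPM in the controls and 76.6, 161, 137, 70.0 and 54.8 CPM in the cKO libraries. Systemic cKO 4 and 5 stood above all other libraries for Uqcrb, whereas systemic cKO 7 was among the lowest, and the log2 fold change was 0.42 (adjusted p = 0.506, SE 0.27).

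In complex IV the genes were Ndufa4l2, an isoform of Ndufa4 known as a target of hypoxia-inducible factor, and Cox7a2l, which links complexes III and IV in supercomplexes. Ndufa4l2 levels were 86.1, 189, 19.7, 89.5 and 143 CPM in the topical controls and 48.6, 55.7, 153, 22.4 and 349.5 CPM in the topical cKO libraries. With systemic tamoxifen, Ndufa4l2 stood at 312, 22.4, 167, 35.2 and 14.8 CPM in the controls and 22.1, 33.7, 48.9, 14.9 and 36.7 CPM in the cKO libraries. The systemic cKO libraries were all under 50 CPM, the other groups each held libraries both under 50 and over 150 CPM, and the log2 fold change between systemic genotypes was -1.81 (adjusted p = 0.313, SE 0.84). It was -0.93 without systemic control 1, the highest library of its group. Cox7a2l levels were 188, 194, 149, 144 and 198 CPM in the topical controls and 223, 119, 230.4, 145 and 167 CPM in the topical cKO libraries. With systemic tamoxifen, Cox7a2l stood at 155, 79.7, 128, 171 and 87.6 CPM in the controls and 123, 250.3, 195, 118 and 104 CPM in the cKO libraries. Cox7a2l was lowest in systemic control 3 and highest in systemic cKO 4, and its log2 fold change was 0.35 (adjusted p = 0.579, SE 0.26).

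In complex V the genes were Atp5g2, one of the 3 genes of the rotor's c subunit, and Atp5pb, the b subunit of the stator stalk. Atp5g2 levels were 32.1, 34.9, 22.0, 30.4 and 37.7 CPM in the topical controls and 32.6, 20.6, 34.8, 21.6 and 32.3 CPM in the topical cKO libraries. With systemic tamoxifen, Atp5g2 stood at 20.0, 8.13, 11.3, 17.7 and 9.31 CPM in the controls and 15.9, 32.1, 28.4, 16.6 and 15.6 CPM in the cKO libraries. Systemic cKO 4 and 5 were level with the topical libraries, systemic cKO 2, 6 and 7 were level with the systemic controls, and the log2 fold change between systemic genotypes was 0.73 (adjusted p = 0.158, SE 0.26). Atp5pb levels were 271, 318, 255, 248 and 289 CPM in the topical controls and 297, 176, 305, 205 and 356 CPM in the topical cKO libraries. With systemic tamoxifen, Atp5pb stood at 219.8, 131, 151, 208 and 141 CPM in the controls and 195, 359, 275, 175 and 147 CPM in the cKO libraries. Atp5pb was lowest in systemic control 3 and highest in systemic cKO 4, just above topical cKO 7, with a log2 fold change of 0.44 (adjusted p = 0.404, SE 0.24). The smallest adjusted p of the whole set belonged to Sdhaf1, at 5.87, 3.99, 4.08, 4.93 and 4.71 CPM in the systemic controls and 3.96, 6.80, 8.40, 7.15 and 8.63 CPM in the cKO libraries, with a log2 fold change of 0.58 (adjusted p = 0.119, SE 0.19). Sdhaf1 is named here after its values were seen, and 4 of its 5 cKO libraries lay above all 5 controls, systemic cKO 2 below them. It was the 1 gene of the set called without systemic cKO 2, beside 6.26% of all genes, and by DESeq2's Wald test, beside 4.5%. By voom 0 were called, beside 2.85%.

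**Figure D4:**
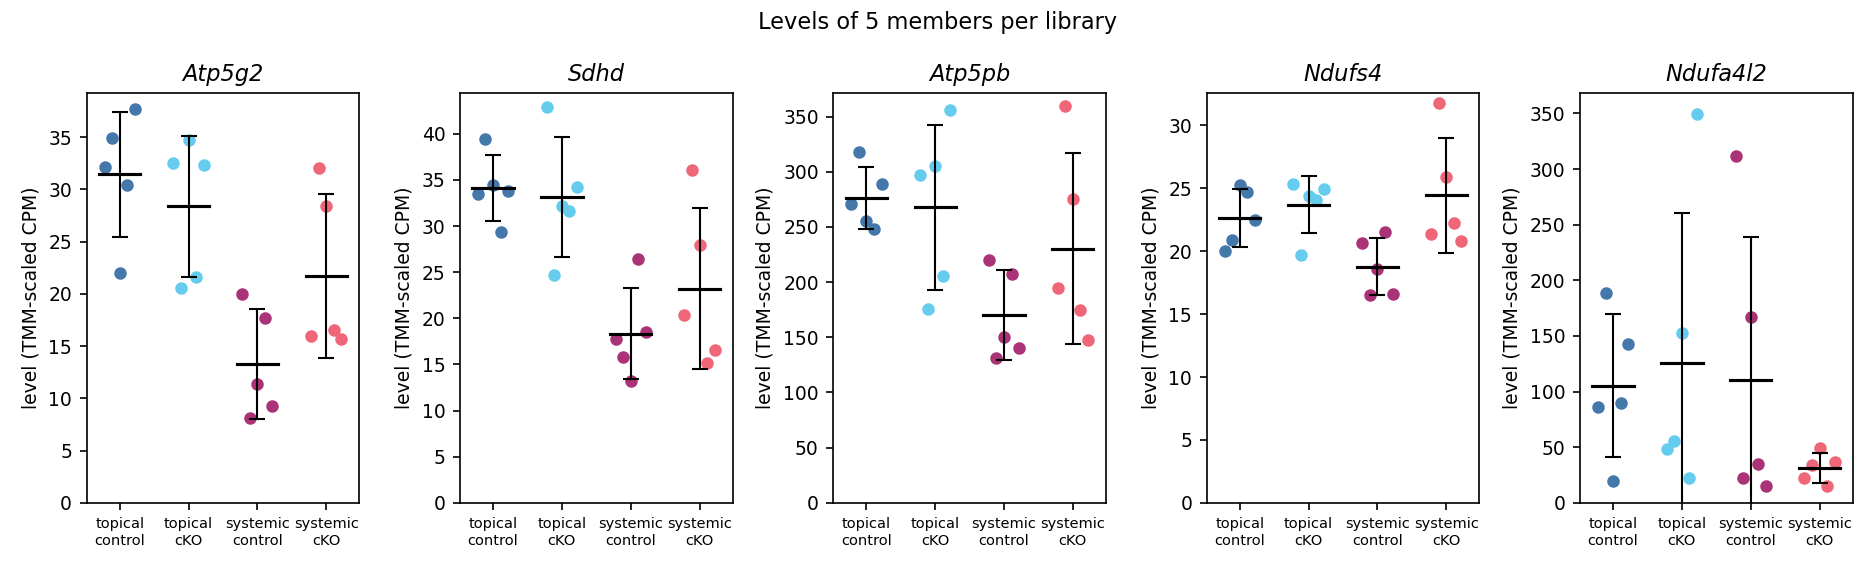
Level per library (points, TMM-scaled CPM) of Atp5g2, Sdhd, Atp5pb, Ndufs4 and Ndufa4l2 in the 4 groups of 5 mice, with the group mean (wide line) and SD (error bar). SD bars that pass 0 are cut there. For Atp5g2, Sdhd and Atp5pb the systemic controls lie below all topical controls, with the systemic cKO libraries spread across both ranges, and Ndufa4l2 is low in all 5 systemic cKO libraries and spread widely in the other groups.

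Other processing changed the systemic count. With the mitochondrial share as a covariate 9 genes were called, all higher in cKO (Atp5c1, Atp5g2, Atp5h, Atp5pb, Cox7a2l, Ndufb3, Ndufs4, Sdhaf1 and Uqcrh), which is 9 of 84 beside 10.6% of all genes in that fit. With only the 10 libraries under 5%, which leaves systemic cKO 4 alone in its group and assumes that it varies like the others, 5 were called (Atp5g2, Atp5pb, Ndufs4, Ndufv2 and Uqcrc2), all higher, beside 5.51% of all genes. With an offset for length and GC content 1 was called, beside 3.36% of all genes. In the interaction, the systemic minus the topical genotype effect, 0 of 84 genes were called, where 0.25% of all genes were, and 1 had an unadjusted p under 0.05, against 14% of all genes. Atp5g2 came closest, with an interaction of 0.88 (adjusted p = 0.272, SE 0.36) on the log2 scale, and was called in the fit with the mitochondrial covariate, beside 2.93% of all genes. The median interaction was 0.17, with 61 of 84 above 0, against -0.03 over all genes, and it was -0.25 and -0.33 with the satellite-like covariates and -0.02 without systemic cKO 4. DESeq2 and voom called 0 of the set in the interaction, beside 2.58% and 0.274% of all genes.

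Between routes most genes of the set lay lower in systemic than in topical controls, and 3 passed the test. Atp5g2, Sdhd and Atp5pb were called, all lower, beside 18.3% of all genes tested (8.16% lower, 10.2% higher). Of the 84 genes, 82 had a log2 fold change below 0, against 49.9% of all genes, with a median of -0.40 against 0.00. That median was -0.40 on library totals too, and it was -0.02 and 0.10 with the satellite-like covariates. Of the set, 31 had an unadjusted p under 0.05 (36.9%, against 32.9% of all genes). The share of the set that was called lower, 3 of 84, was below that of all genes. For 6 of the 84 the 5 systemic controls were all lower than the 5 topical controls, beside 6.26% of all genes: the 3 called genes with Uqcrc2, Uqcrfs1 and Sdhaf2.

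The library values of the 3 called genes are those given with the systemic comparison. Atp5g2 (ENSMUSG00000062683), whose promoter holds the NRF1 match, stood at 31.4 ± 5.96 CPM in topical and 13.3 ± 5.25 CPM in systemic controls (SD, n = 5 each), and its log2 fold change of -1.25 (adjusted p = 0.00256, SE 0.26) was the largest of the set in this comparison. Sdhd (ENSMUSG00000000171), with NRF1 and GABPA matches, fell from 34.1 ± 3.61 CPM to 18.3 ± 4.94 CPM, with a log2 fold change of -0.90 (adjusted p = 0.00618, SE 0.21). Atp5pb (ENSMUSG00000000563), with the YY1 match, fell from 276 ± 28.0 CPM to 170.0 ± 40.8 CPM, with a log2 fold change of -0.70 (adjusted p = 0.0471, SE 0.24). The 2 sister genes of Atp5g2 for the c subunit were not called: Atp5g1 had -0.43 (adjusted p = 0.393, SE 0.34) and Atp5g3 -0.72 (adjusted p = 0.0782, SE 0.28). Just outside the threshold were Uqcrc2 at -0.57 (adjusted p = 0.0504, SE 0.20) and Uqcrfs1, the Rieske iron-sulfur protein of complex III, at -0.58 (adjusted p = 0.0578, SE 0.21).

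By complex, the median log2 fold change in controls was -0.31 for complex I, -0.41 for complex II, -0.45 for complex III, -0.51 for complex IV and -0.57 for complex V. Complex IV summed to 2877 ± 287 CPM in topical and 1884 ± 456 CPM in systemic controls, and complex V to 6478 ± 356 and 4743 ± 764 CPM (library total, SD, n = 5 each), with no overlap in either. Complexes I, II and III overlapped, at 2307 ± 164 against 1798 ± 307 CPM, 297 ± 42.1 against 232 ± 43.0 CPM and 1520.0 ± 111 against 1268 ± 243 CPM. With TMM factors complexes IV and V overlapped too. Complex IV ran from 2016 to 3565 CPM in topical and 1119 to 2793 CPM in systemic controls. Complex V ran from 5610 to 7421 and 3255 to 6428 CPM. Uqcrc1 with 0.08 (adjusted p = 0.877, SE 0.30) and Ndufa4l2 with 0.06 (adjusted p = 0.966, SE 0.82) were the genes above 0. Differences between complexes were not tested.

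**Figure D5:**
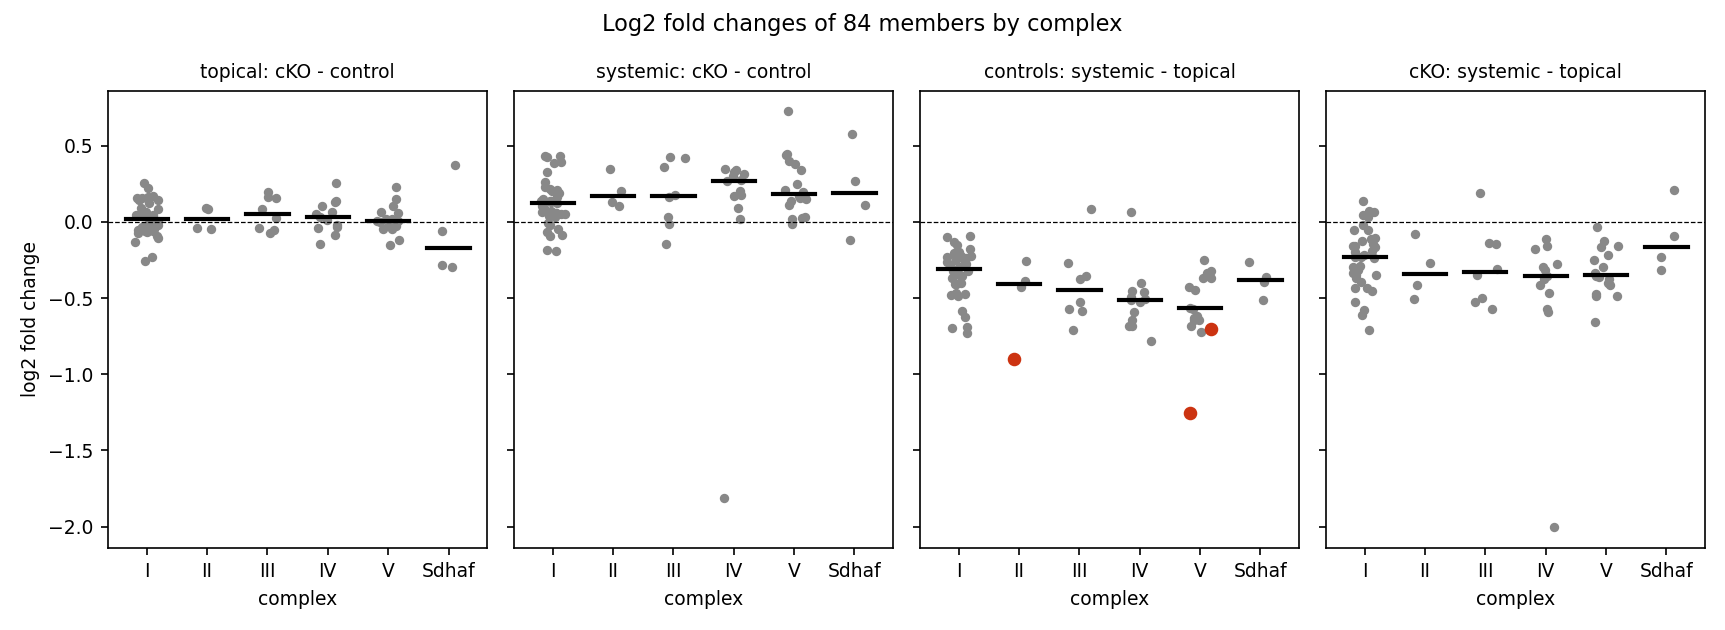
Log2 fold change of each of the 84 genes by complex (points, called genes in red, black bar the median) for cKO against control after topical and systemic tamoxifen and for systemic against topical in controls and in cKO. In controls all but 2 points lie below 0 and the 3 red points are Sdhd in complex II with Atp5g2 and Atp5pb in complex V.

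The number called in controls depended on the fit. It was 8 with DESeq2's Wald test (beside 22.3% of all genes), 6 with limma voom (18.4%) and 8 with the 2 groups fitted alone (20.7%). It was 19 on library totals without TMM factors (beside 7.72% of all genes) and 42 with the mitochondrial percent as a covariate (beside 28.1%), all lower. It was 0 with the satellite-like level as a covariate on the log2 scale (beside 0.95% of all genes) or as a split (0.00805%), 1 with the mitochondrial share and the log2 satellite-like level together (3.75%), 11 without systemic control 1 (20.1%) and 12 without systemic control 5 (17.5%). All 5 systemic and no topical control have over 50 satellite-like CPM, so that level and route cannot be told apart in the controls. Atp5g2 and Sdhd were called without each of the 10 control libraries in turn, whereas Atp5pb lost its call without any 1 of 8 of them (adjusted p 0.0579 to 0.123) and kept it without systemic control 1 (0.0308) or 5 (0.0429). Summed marker levels of other cell types overlapped between these groups: 6.01 to 14.4 CPM in topical and 8.36 to 25.1 CPM in systemic controls for 8 epidermal immune cell genes, and 4.73 to 11.6 against 8.36 to 23.1 CPM for 5 melanocyte genes. Of the marker genes that passed the filter, Pmel (1 of 3 melanocyte genes tested), Hba-a1 (the 1 erythroid gene tested), Atp2a1 (1 of 3 skeletal muscle genes) and Krt15 (1 of 10 keratinocyte genes) were called higher in systemic controls, and Tie1 (1 of 5 endothelial genes) lower. Their part in the result was not tested.

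In the cKO mice the same route comparison called none of the 84 genes, where 9.22% of all genes were called, and 10 had an unadjusted p under 0.05 (11.9%, against 23.1% of all genes). The median log2 fold change was -0.30, with 77 of 84 below 0, against -0.01 over all genes. The median of the set ran from -0.46 to -0.18 without 1 library. It was 0.03 in the libraries under 5% mitochondrial counts, where systemic cKO 4 stands alone for its group. Markers of other cells moved with route in these mice. Hba-a1, the 1 erythroid gene tested, was higher in systemic cKO at 2.71 (adjusted p = 5.22e-05, SE 0.35) on the log2 scale, and Tie1 of endothelium was lower at -2.35 (adjusted p = 0.00539, SE 0.52). The erythroid sum was 0.901 to 1.85 CPM in topical and 3.52 to 7.63 CPM in systemic cKO and the immune cell sum 5.74 to 16.0 and 17.1 to 30.5 CPM, with no overlap in either. All 5 endothelial and all 5 fibroblast genes tested had a log2 fold change below 0, with 1 and 0 of them called, and the part of these markers in the result was not tested. Ndufa1, an accessory subunit of complex I, had the smallest adjusted p with a log2 fold change of -0.71 (adjusted p = 0.107, SE 0.27). Atp5mpl, a small subunit of complex V, followed with -0.65 (adjusted p = 0.111, SE 0.25). The genes called in controls had -0.51 (adjusted p = 0.147, SE 0.21) for Sdhd, -0.37 (adjusted p = 0.399, SE 0.25) for Atp5g2 and -0.22 (adjusted p = 0.638, SE 0.24) for Atp5pb. Without systemic cKO 4, which had the highest summed level with TMM factors, 3 genes were called, Ndufab1, Ndufv1 and Sdhd, beside 9.69% of all genes. On library totals without TMM factors 5 were called, all lower, beside 4.35% (Atp5mpl, Cox4i1, Ndufa1, Ndufa12 and Ndufb6). With the mitochondrial share as a covariate 5 were called (beside 13.8%), with the satellite-like level added 5 (14.7%) and with an offset for length and GC content 1 (10.7%), all lower. DESeq2 and voom called 0 of the set, beside 12.4% and 9.87% of all genes. The route and genotype comparisons share groups of libraries, so their fold changes are not independent of each other.

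Genes that work beside the respiratory complexes gave mixed calls between routes and almost none between genotypes. Of 42 assembly factors 0 were called in the topical, systemic and interaction comparisons, and in the route comparison of controls 2 were higher and 3 lower, beside 10.2% and 8.16% of all genes. The values after each name are log2 fold changes by edgeR. Cox20, a chaperone of the complex IV subunit Cox2, was higher at 0.42 (adjusted p = 0.0455, SE 0.14), and Sco1, a copper chaperone of complex IV, was lower at -0.68 (adjusted p = 0.0154, SE 0.19). Of 78 mitochondrial ribosomal proteins, 15 fell in systemic controls and 0 rose (19.2%, beside 8.16% of all genes lower), with Mrpl17 at -0.82 (adjusted p = 0.00814, SE 0.20) and Mrpl3 at -0.64 (adjusted p = 0.00722, SE 0.16), and 2 of 78 fell in the cKO, beside 9.22% of all genes called in either direction. Of 24 import genes 4 fell in controls, beside the same 8.16%, with Tomm20, a receptor of the outer membrane, at -0.73 (adjusted p = 0.00814, SE 0.18). In the cKO 3 of 24 import genes were called, beside 9.22% of all genes: 2 fell and 1 rose, Tomm34 at 0.45 (adjusted p = 0.00762, SE 0.10). Of 18 genes of the citric acid cycle and pyruvate dehydrogenase, Fh1 and Dlst fell and Pdhb rose in controls, 3 of 18 beside 18.3% of all genes called. Among 16 regulators of mitochondrial biogenesis 3 were called in controls, beside the same 18.3%. The mitochondrial DNA polymerase genes Polg, at 0.60 (adjusted p = 0.0018, SE 0.12), and Polg2, at 0.99 (adjusted p = 0.0314, SE 0.31), rose in controls. The helicase Twnk fell, at -0.49 (adjusted p = 0.0236, SE 0.15). Nrf1, Gabpa, Yy1, Esrra and Tfam were not called in any comparison. None of the 9 carriers and subunits outside the name rule was called, among them Cyc1 at -0.25 (adjusted p = 0.568, SE 0.28) and Cycs at -0.37 (adjusted p = 0.318, SE 0.25) between routes in controls.

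Of the 9 mitochondrially encoded subunits past the filter, mt-Nd3 of complex I alone was called. This was 1 of 9 in the systemic genotype comparison, beside 1.89% of all genes, and 1 of 9 between routes in controls, beside 18.3%. It rose in systemic cKO against systemic controls, from 12.6 ± 4.81 to 37.0 ± 24.0 CPM (SD, n = 5 each), with a log2 fold change of 1.55 (adjusted p = 0.0178, SE 0.34). Systemic cKO 5 stood at 78.9 CPM and the other systemic cKO libraries at 19.6 to 32.7 CPM. In controls mt-Nd3 was lower in systemic than in topical libraries at -1.11 (adjusted p = 0.0249, SE 0.33). The median over the 9 was 0.74 in the systemic genotype comparison, with 9 of 9 above 0, beside 0.16 for the nuclear genes and -0.0045 over all genes. Of the 5 libraries per group, 4 systemic cKO and 2 systemic controls had over 5% mitochondrial counts.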

How the data were processed

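Bulk RNA was measured in 20 libraries of sorted keratinocytes, 1 per mouse. The authors deposited 1 table of raw read counts per gene, whole numbers without normalization. Per the submitters' processing notes, STAR and featureCounts were used on GRCm38 (mm10); versions and strand setting are not given in the sources used here. Total counts of 11.6 to 50.1 M per library set the precision.

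Computed here: edgeR 4.0.16 in R 4.3.3 with TMM factors, filterByExpr, robust quasi-likelihood fits and 1 coefficient per group over all 20 libraries, with Benjamini-Hochberg adjustment over 12424 genes and calls at adjusted p under 0.05. The p-values measure the spread between these mice. Alternatives used DESeq2 1.42.0, limma 3.58.1 (voom), other scalings, covariates, subsets of libraries and the replicate number as a block.

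The genes of the set and all other gene lists were chosen with earlier results of these data known. Members named are those called in a comparison, the highest per kb and those below the filter in each complex, isoform pairs, and, with values per library, the 2 with the smallest systemic adjusted p in each complex. Others named were chosen after their values were seen. Gene positions and transcript lengths came from GENCODE M21 (GRCm38), where 25614 of 25719 identifiers were found, and promoters from RefSeq (GRCm38.p6).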

Additional observations from a re-analysis of the deposited data

Results flagged for a closer look

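In 84 checks of groups of 5 libraries, 2 levels stood apart from the other 4 of their group by Dixon's criterion, where chance gives about 1 in 20. Ndufs4 was 19.7 CPM in topical cKO 3, against 24.1 to 25.4 CPM in the other topical cKO libraries. Uqcrb was 108 CPM in topical control 3, against 82.5 to 89.0 CPM in the other topical controls.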

How the results depend on the processing

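Each result was recomputed under up to 23 alternatives per comparison, or 32 for the interaction. Of these, the fit with both covariates, the libraries under 5% mitochondrial counts, the length and GC offset and library totals without TMM factors were chosen after seeing the data. No gene of the set was called in the topical comparison under any of 23. In the systemic comparison the count went from 0 to 1 with DESeq2's Wald test, 9 with the mitochondrial percent, 5 in libraries under 5%, 1 with the length and GC offset (beside 3.36% of all genes), and 0 to 1 without 1 library (1 without systemic cKO 2). In the interaction it was 1 with the mitochondrial percent. Between routes in controls it went from 3 to 8 with DESeq2's Wald test, 6 with voom, 8 with only the libraries compared, 0 with either satellite-like covariate, 42 with the mitochondrial percent, 1 with the percent and the log2 satellite-like level together, 19 on library totals, and 2 to 12 without 1 library. In the cKO it went from 0 to 5 with the mitochondrial percent (beside 13.8% of all genes), 5 with both covariates (14.7%), 5 on library totals (4.35%), 1 with the offset (10.7%), and 0 to 3 without 1 library (3 without systemic cKO 4).

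The median log2 fold change moved by more than the spread in the satellite-like fits: with the split at 50 CPM it was -0.30 in the systemic comparison, -0.33 in the interaction (-0.25 on the log2 scale) and 0.10 between routes in controls. Ndufb4 in the systemic comparison turned to -0.076 and -0.27, Sdhc to -0.058 and -0.11, and Cox7a2l to -0.010 with the split. Atp5pb turned to 0.16 between routes in cKO in the libraries under 5%, where the systemic cKO group is a single library. When single libraries were left out instead, Atp5pb ran from -0.44 to -0.09. Beyond the construction of these fits the cause was not tested.

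Mouse numbers did not pair the samples: correlations of same-numbered libraries ran from -0.299 to 0.323, and in each comparison 1 number correlated best with its own. The replicate block gave 8 called genes between routes in controls, beside 17.6% of all genes in that fit, and 0 in the other 4 comparisons. The floor of 3 counts, 0.0599 to 0.259 CPM, limits what can be said of the 8 genes under the filter.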
